A study of Danio rerio with 4 samples.

Results

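Germ plasm is a maternal assembly of RNA and protein in the fish egg that is inherited by a few cells of the embryo and sets them aside as primordial germ cells, the founders of eggs and sperm. Bucky ball organizes it, RNA-binding proteins such as Dead end, Dazl and Nanos control which of its messenger RNAs are kept and translated, and the Piwi proteins with their small RNAs (piRNAs) silence transposons in germ cells. The data describe 10 germ plasm and germ cell genes in RNA recovered with Ddx3xb, a DEAD-box RNA helicase. The genes were buc, dnd1, dazl, nanos3, celf1, piwil1, piwil2, asz1, hook2 and rgs14a. They were chosen by name for their known role, without tudor domain and DEAD-box genes, and were matched by symbol, with letter case ignored, among the 27205 genes listed. All 10 were found, each on 1 Ensembl gene identifier. The symbol hook2 belongs to 2 identifiers, and 1 of them was in the tables.

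The 2 groups were zebrafish embryos collected at 2 and at 4 hours post-fertilization (hpf). Embryos of both groups carried the wild-type genotype and had received injected mRNA for FLAG-tagged Ddx3xb, so the bait was supplied to the embryo in addition to its own. RNA was recovered on anti-FLAG beads and sequenced (RIP-seq) from 4 samples, 2 biological replicates per age. The sample descriptions also use the word control, which the labels do not explain, and in a precipitate without the tagged protein a value would be background. The labels do not give the number of embryos per sample.

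The values are the authors' RPKM (reads divided by gene length in kilobases and by the library's read total), with 1 mean per gene and age. No replicate value stands behind them, so there is no SD, no test was possible, and the sequencing depth is unknown. RPKM is a level in the precipitate. No input or mock sample was analysed here, and a level is therefore not an enrichment. Because whole embryos were lysed, fewer cells with germ plasm and less of an RNA per cell cannot be told apart. The 2 tables are called the 2 hpf table and the 4 hpf table after their labels. The labels sit against the embryo's own markers. Of 6 measured genes of the zygotic blastula, which are transcribed after the embryo's genome is switched on, 3 (noto, tbx16 and irx7) were at least 2-fold lower in the 4 hpf table on the log2(RPKM + 1) scale, beside 10.9% of all genes compared, and none was 2-fold higher. The 7 of that list that were found summed to 247 RPKM in the 2 hpf table and 45.7 RPKM in the 4 hpf table. Of the 6 maternal egg RNAs of the marker list, 4 were at least 2-fold higher in the 4 hpf table. That stands beside 33.0% of all genes and 51.2% of those reaching 5 RPKM, as all of these RNAs except zp2l1 did. None of the maternal egg RNAs was 2-fold lower, with sums of 98.3 and 255 RPKM in the 2 and 4 hpf tables. Every direction below rests on the labels as given and would reverse if the 2 tables were exchanged, which was not tested.

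With the RPKM as deposited, most of the germ plasm genes were higher in the 4 hpf table, in the same direction as the median of all genes. A gene was called when its log2(RPKM + 1) differed by at least 1 between the tables, which is 2-fold on that scale, and the 13341 genes reaching 1 RPKM in the 2 hpf table, the 4 hpf table or both were compared. Of the 10 germ plasm genes, 6 were at least 2-fold higher in the 4 hpf table, against 33.0% of all genes compared. The share was 51.2% among genes reaching 5 RPKM in a table, as 9 of the 10 did. The 6 higher genes were buc, asz1, piwil2, dazl, rgs14a and hook2. None of the 10 was at least 2-fold lower, against 10.9% of all genes compared. The median difference of the 10 genes was 1.32, and that of all genes compared was 0.66. The median gene therefore differed in the same direction as the group. The summed RPKM of all listed genes went the other way, at 737850 and 556384 in the 2 and 4 hpf tables. Of the 10 genes, 8 lay above the median of all. Relative to that median, 3 of the 10 (buc, asz1 and piwil2) were at least 2-fold above, against 7.85% of all genes, and none was 2-fold below, against 21.2%. The median was 1.02 among genes reaching 5 RPKM. Relative to that value, asz1 at 1.97 and piwil2 at 1.73 were less than 2-fold above, and buc at 2.45 was still more than 2-fold above. All 10 genes passed the filter of 1 RPKM, but piwil1 did so through the 4 hpf table alone. Without piwil1 the median of the remaining 9 was 1.34.

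**Figure D1:**
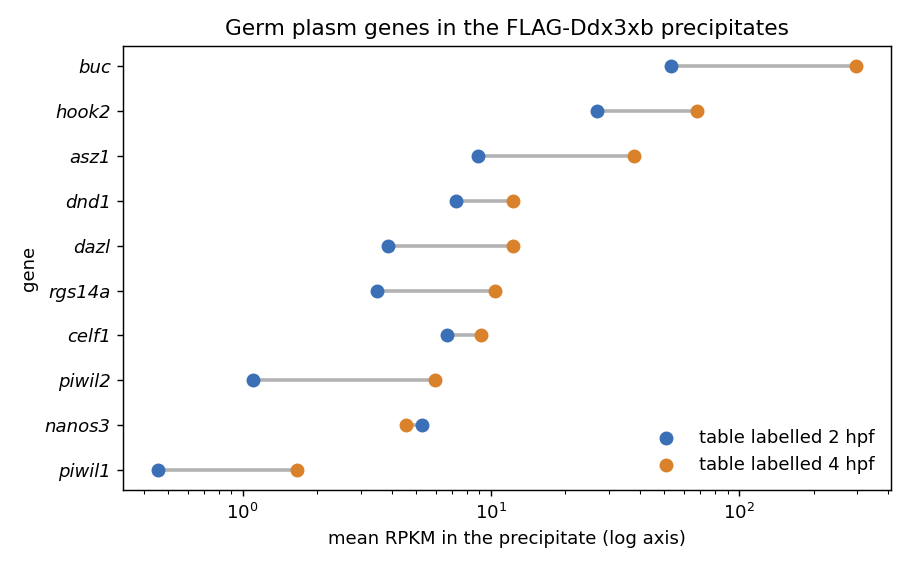
Mean RPKM of each germ plasm gene in the 2 hpf table (blue) and the 4 hpf table (orange), on a log axis, with a grey line joining both values of a gene. The orange point lies to the right for every gene except nanos3, and buc has the highest level in both tables, at 53.4 and 295 RPKM.

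The size and the sign of the shift of all genes depend on how the tables are scaled to each other. Of all genes past 2-fold, 75.2% were higher in the 4 hpf table with the deposited RPKM. That share was 85.6% when both tables were given an equal sum, 39.7% under quantile normalization, 26.2% when the sums without the 100 highest genes were made equal, and 13.8% when the median ratio of abundant genes was set to 1. The median of all genes, 0.66 as deposited, became 0.96, 0.22, 0.07 and -0.08 under these scalings in the same order. The median of the germ plasm genes was 1.69, 0.76, 0.57 and 0.42 in that order. It stayed between 0.50 and 0.73 above the median of all genes under these 4 scalings. All of these except quantile normalization multiply a whole table by a constant, which shifts every gene nearly alike. A similar gap there was therefore built in and does not show a stable place of the genes. The filter mattered too. Among genes with at least 5 RPKM in one of the tables, 51.2% were at least 2-fold higher and the median was 1.02, while 6 of the 9 germ plasm genes that passed were higher and their median was 1.34. The germ plasm median was 0.32 above that of all genes with this filter and 1.28 above it without any filter.

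The gene buc (ENSDARG00000096095) encodes Bucky ball, the protein that builds the Balbiani body of the oocyte and gathers germ plasm in the embryo. Its level was 53.4 RPKM in the 2 hpf table and 295 RPKM in the 4 hpf table, a ratio of 5.53 and a difference of 2.45 on the log2(RPKM + 1) scale. It was the most abundant of the 10 genes in both tables. Its rank among all listed genes went from 307 of 25804 to 59 of 24904. The difference was larger than that of 99.8% of the genes compared, and 23 genes had a larger one. On this scale the added 1 lowers the differences of less abundant genes more. The gene sycp1, for example, had a larger ratio of 5.86 and a smaller difference of 2.44. All 58 genes above buc in the 4 hpf table were also above it in the 2 hpf table, and none of these 58 had a larger difference. The difference of buc ranged from 1.42 to 2.85 over the reported setting and the 9 alternatives tried, at least 2-fold in each. Those alternatives that only change which genes are kept could not move it.

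The RNA-binding regulators had a median difference of 0.55, below the 0.66 of all genes. That place depends on the filter, since the median of all genes was 0.05 without one and 1.02 among genes reaching 5 RPKM. Of the 4 regulators, 1 (dazl) passed 2-fold, beside 33.0% of all genes. The gene dazl (ENSDARG00000036214), whose protein promotes translation of germ cell messenger RNAs, was at 3.86 RPKM in the 2 hpf table and 12.3 RPKM in the 4 hpf table. That is a ratio of 3.18 and a difference of 1.45, which fell below 1 under 4 alternatives (0.96 with a pseudocount of 5, 0.80 after quantile normalization, 0.73 without the 100 highest genes and 0.56 with an equal median ratio). The gene dnd1 (ENSDARG00000022813) encodes Dead end, which shields messenger RNAs of the germ cells from microRNAs. Its level was 7.23 and 12.3 RPKM in the 2 and 4 hpf tables, and its difference of 0.70 was close to the median of all genes. The level of dnd1 in the 4 hpf table was nearly that of dazl, although dnd1 was the more abundant of the pair in the 2 hpf table.

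The gene celf1 (ENSDARG00000005315), for an RNA-binding protein of messenger RNA decay and translation, was at 6.69 and 9.17 RPKM in the 2 and 4 hpf tables. Its difference of 0.40 lay below the median of all genes. The gene nanos3 (ENSDARG00000068255), for a zinc finger repressor of translation that germ cells need in order to survive and migrate, was at 5.30 and 4.56 RPKM. It was the only one of the 10 with a negative difference, at -0.18, which was not called. The signs of dnd1, celf1 and nanos3 depended on the scaling, while dazl stayed positive under all settings. The difference of dnd1 became -0.08, -0.05 and -0.24 and that of celf1 -0.33, -0.33 and -0.51 under quantile normalization, without the 100 highest genes and with an equal median ratio, while that of nanos3 became 0.16 with an equal sum and -1.03 with an equal median ratio. With an equal sum, in contrast, dnd1 reached 1.06 and passed 2-fold. Relative to the median of all genes, nanos3 stayed below under the reported setting and all 9 alternatives, celf1 did so in 9 of these 10, and dnd1 was above in 5 of the 10. Scaling a whole table by a constant moves a gene and that median nearly alike, and a filter leaves the gene's own value unchanged. Much of each count was therefore built in and does not show a stable place of the gene.

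Of the 3 piRNA pathway genes, 2 passed 2-fold, beside 33.0% of all genes. The gene asz1 (ENSDARG00000004823) encodes an ankyrin repeat protein that in mouse anchors piRNA factors at mitochondria. It was at 8.88 RPKM in the 2 hpf table and 37.8 RPKM in the 4 hpf table, a ratio of 4.25 and a difference of 1.97. This difference was at least 2-fold under all settings, though with an equal median ratio it lay almost exactly on the threshold. Its rank moved from 2817 to 1211.

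The Piwi genes were the least abundant of the 10 in the 2 hpf table. The gene piwil2 (ENSDARG00000062601), known as zili, was at 1.098 and 5.94 RPKM in the 2 and 4 hpf tables. Its ratio of 5.41 was close to the 5.53 of buc, while its difference of 1.73 on the log2(RPKM + 1) scale was smaller because the added 1 weighs more on low values. With a pseudocount of 0.1 the difference was 2.33, and with one of 5 it was 0.84. The gene piwil1 (ENSDARG00000041699), known as ziwi, was the lowest of the 10 in both tables, at 0.457 and 1.66 RPKM. Its ratio was 3.63, and its difference of 0.87 was not called, but reached 1.66 with a pseudocount of 0.1 and 1.06 with an equal sum. At these levels a ratio may rest on few reads, and the error is unknown without counts.

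The remaining pair, hook2 and rgs14a, are known as messenger RNAs of zebrafish germ plasm and primordial germ cells. The gene hook2 (ENSDARG00000039309), for an adaptor between cargo and microtubule motors, was at 26.8 and 67.7 RPKM in the 2 and 4 hpf tables, the second highest of the 10 in both. Its ratio was 2.53 and its difference 1.31. The gene rgs14a (ENSDARG00000021521), for a regulator of G protein signalling, was at 3.49 and 10.4 RPKM, with a ratio of 2.98 and a difference of 1.34. Both were at least 2-fold higher as deposited, and both were below 2-fold under quantile normalization (0.36 for hook2 and 0.72 for rgs14a), with an equal median ratio (0.30 and 0.46) and without the 100 highest genes (0.50 and 0.64). With a pseudocount of 5, rgs14a was also below, at 0.86.

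A ratio between 2 genes of the same table does not depend on any constant factor between the tables. The reference buc had the largest ratio of the 10 genes between the tables, so the 9 others fell behind it by construction. Their order behind buc is the order of their own ratios between the tables. The level of piwil2 was 2.06% of that of buc in the 2 hpf table and 2.01% in the 4 hpf table, so the pair kept its ratio. The level of asz1 went from 16.6% to 12.8% of that of buc, and that of piwil1 from 0.855% to 0.561%. The genes dazl (7.22% and 4.16%), rgs14a (6.54% and 3.52%) and hook2 (50.1% and 22.9%) came next. The gap was widest for dnd1 (13.5% and 4.17%), celf1 (12.5% and 3.10%) and nanos3 (9.92% and 1.54%). Expressed as a ratio, buc was 10.1 times as abundant as nanos3 in the 2 hpf table and 64.7 times in the 4 hpf table, a gap 6.42 times as wide. Against celf1 the gap was 4.03 times as wide and against dnd1 3.24 times. No replicate error is known for these ratios.

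**Figure D2:**
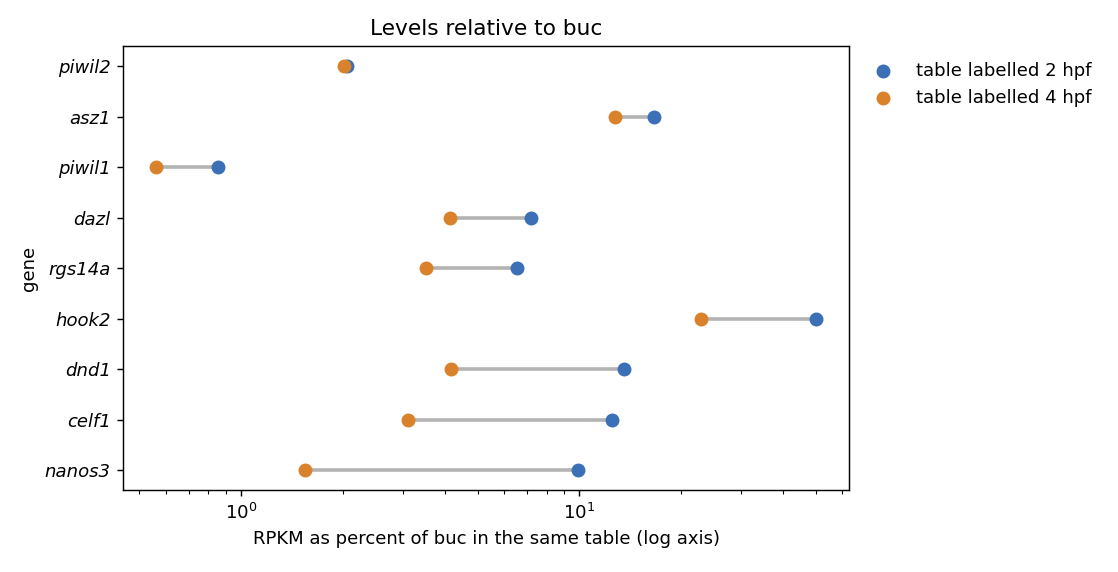
RPKM of 9 germ plasm genes as a percent of buc in the same table, on a log axis, for the 2 hpf table (blue) and the 4 hpf table (orange), ordered by the ratio of the 2 RPKM values. The blue and orange points of piwil2 coincide at 2.06% and 2.01%, and the widest gap is that of nanos3, from 9.92% to 1.54%.

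The order of levels among the 10 genes changed in its middle part. The genes buc, hook2, asz1 and dnd1 held the first 4 places in both tables, and piwil1 the last. In the 2 hpf table they were followed by celf1, nanos3, dazl, rgs14a and piwil2, and in the 4 hpf table by dazl, rgs14a, celf1, piwil2 and nanos3. How far neighbours in these orders differ beyond their error cannot be told without replicate values. The summed level of the 10 genes was 117 RPKM in the 2 hpf table and 457 RPKM in the 4 hpf table, of which buc made up 45.6% and 64.6%. The 9 others summed to 63.8 and 162 RPKM, a ratio of 2.54. Without buc, the count of genes past 2-fold was 5 of 9, beside 33.0% of all genes and 51.2% of those reaching 5 RPKM.

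**Figure D3:**
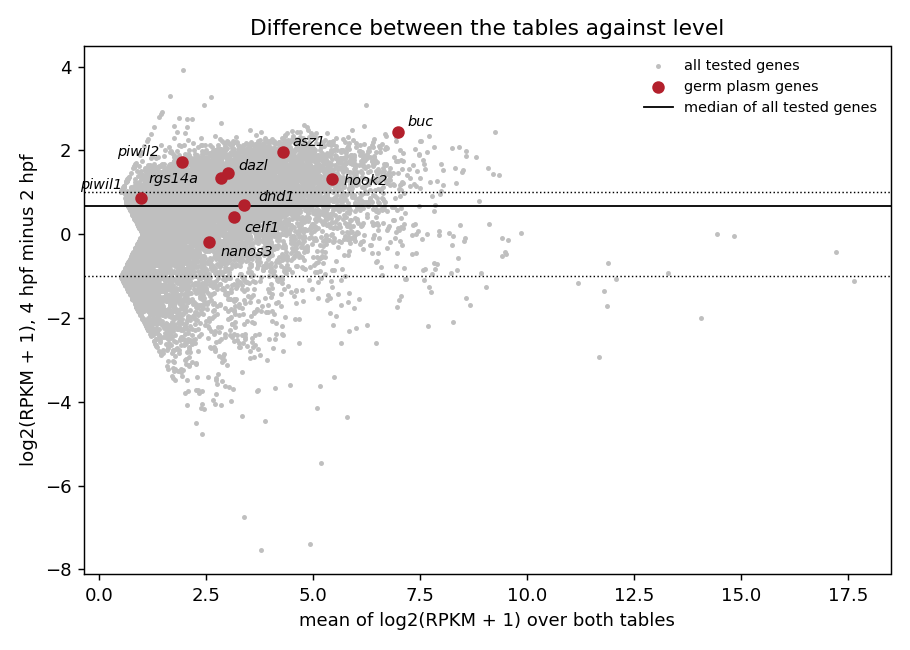
Difference of log2(RPKM + 1) between the tables (4 hpf minus 2 hpf) against the mean of log2(RPKM + 1), with 1 grey point per gene compared, the germ plasm genes in red, the median of all genes at 0.66 as a solid line and 2-fold as dotted lines. The point of buc lies at the upper edge of the cloud at 2.45, and nanos3 is the only red point below 0.

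The genes whose pair of values was nearest to that of buc, by Euclidean distance over log2(RPKM + 1) in the 2 tables, were not germ plasm genes by name. With 2 tables such a likeness describes a level and a difference only. The nearest was eloal, an elongin A-like gene, at 54.0 and 273 RPKM in the 2 and 4 hpf tables and a distance of 0.11. It was followed by NAA15 (ENSDARG00000030368), for a subunit of an amino-terminal acetyltransferase, at 64.0 and 262 RPKM, a difference of 2.02. A second identifier with the symbol NAA15 (ENSDARG00000003213) had a difference of 0.68. Next came rrbp1b, a gene for a ribosome-binding protein of the endoplasmic reticulum, at 68.3 and 266 RPKM. The maintenance DNA methyltransferase gene DNMT1 was at 43.4 and 232 RPKM, and dnttip2 at 50.0 and 213 RPKM.

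Related genes were read from lists with a known role, each described by its count past 2-fold and its median. Of all genes compared, 33.0% were at least 2-fold higher and 10.9% at least 2-fold lower, with a median of 0.66. Among genes reaching 5 RPKM in a table, 51.2% were at least 2-fold higher and 8.65% lower, with a median of 1.02. Several of the lists below lie near these second values. In a list of piRNA pathway partners, 3 of 6 measured genes were at least 2-fold higher in the 4 hpf table and none was lower, with a median of 1.05. The gene henmt1, for the enzyme that methylates piRNA ends, was at 3.78 and 13.4 RPKM in the 2 and 4 hpf tables. The co-chaperone gene fkbp4 was at 35.6 and 99.9 RPKM. The gene gtsf1, for a cofactor of Piwi proteins, was at 26.0 and 37.1 RPKM, a difference of 0.50 that was not called. These partners did not include asz1 or the Piwi genes.

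Of 9 measured genes of germ plasm and Balbiani body assembly, 5 were at least 2-fold higher, none was lower and the median was 1.03. The gene buc2l, named as a relative of buc, was at 10.8 and 54.3 RPKM in the 2 and 4 hpf tables, a difference of 2.23 beside the 2.45 of buc. Where 2 genes are near-identical in sequence, reads they share may have been split by the counting, and how alike buc and buc2l are was not examined here. The RNA-binding protein gene igf2bp3 was at 31.8 and 107 RPKM, and ybx1, for another RNA-binding protein, at 102 and 129 RPKM, a difference of 0.33 that was not called. Primordial germ cell genes were mixed, with 2 of 7 measured genes at least 2-fold higher, 1 lower and a median of 0.83. The meiotic chromosome gene sycp1 was at 10.1 and 59.5 RPKM, and ca15b, a carbonic anhydrase gene of the germ cells, at 7.92 and 19.2 RPKM. The reader gene of methylated adenosine, ythdf2, was at 13.2 and 27.0 RPKM, just under the threshold at 0.98. The transcription factor gene tfap2c, whose mouse counterpart acts in germ cell specification, was the lower one, at 5.59 and 1.06 RPKM.

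Tudor domain and DEAD-box germ genes, which the 10 genes do not include, had 9 of 10 measured genes at least 2-fold higher, none lower and a median of 1.80. The tudor gene stk31 was at 10.6 and 50.2 RPKM in the 2 and 4 hpf tables, tdrd1 at 3.64 and 18.9 RPKM and rnf17 at 6.98 and 27.5 RPKM. The gene ddx4, for the helicase Vasa, was at 12.7 and 43.1 RPKM. The difference between this list and the 10 germ plasm genes was not tested.

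In a list drawn up as messenger RNA partners of Nanos, Dazl and Celf1, 9 of 19 measured genes were at least 2-fold higher. None was lower, and the median was 0.98. The list mixes genes of the deadenylase and of poly(A)-binding proteins with others, among them pum2 and elavl1a. The poly(A)-binding protein gene pabpc1a was at 178 and 361 RPKM in the 2 and 4 hpf tables, and pabpc1l at 8.82 and 26.5 RPKM. The gene btg4, for an adaptor of the deadenylase, was at 25.9 and 71.8 RPKM. The deadenylase subunit genes cnot3b and cnot10 were at 25.1 and 57.0 RPKM and at 3.16 and 10.6 RPKM. Other subunit genes went the other way without being called, and are named here as the 3 of the list with a negative difference. They were cnot9 (3.83 and 1.57 RPKM, -0.91), cnot11 (-0.28) and cnot1 (-0.21). Among family paralogs of the 10 genes, 4 of 8 measured genes were at least 2-fold higher and 1 was lower, with a median of 1.18, and 5 more were listed below 1 RPKM in both tables. The paralog hook1 was at 3.88 and 16.7 RPKM, a difference of 1.86 beside the 1.31 of hook2. The Argonaute gene ago2 was at 14.2 and 29.0 RPKM, a difference of 0.98 that was not called. The paralogs of celf1 that were listed, celf2, celf4 and celf5a, named here because all 3 stayed under 1 RPKM, reached at most 0.732 RPKM.

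**Figure D4:**
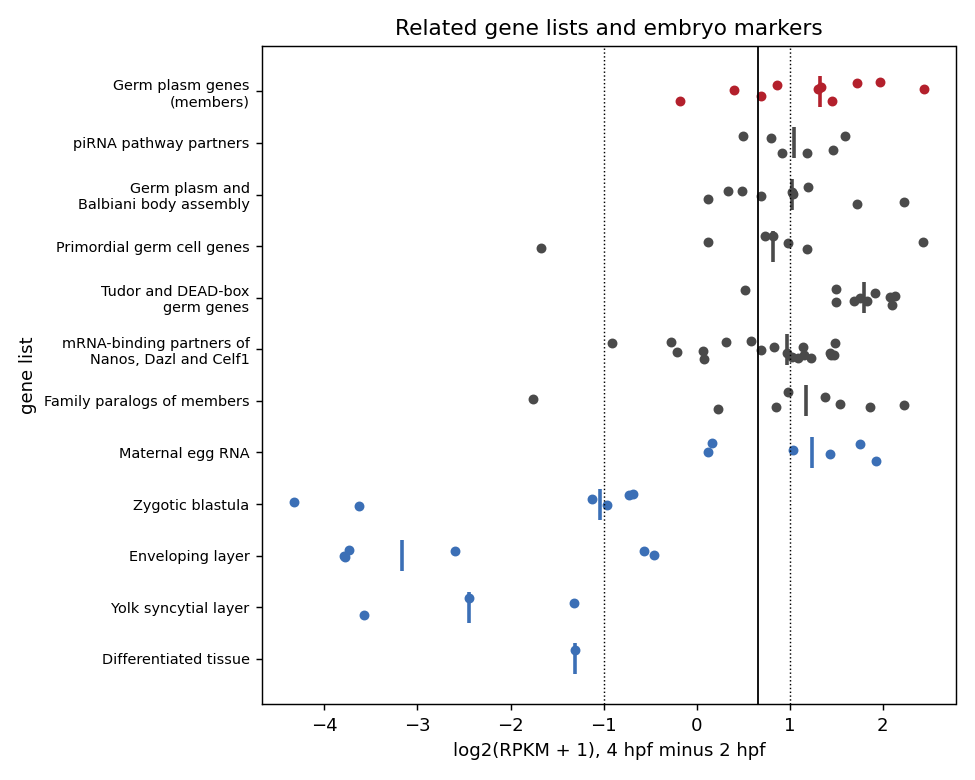
Difference of log2(RPKM + 1), 4 hpf minus 2 hpf, for each measured gene of the germ plasm group (red), of related gene lists (dark grey) and of embryo marker lists (blue), with a short bar at each list's median, a solid line at the median of all genes (0.66) and dotted lines at 2-fold. The tudor and DEAD-box list has the rightmost median at 1.80, and all measured zygotic, enveloping layer and yolk syncytial layer genes lie below 0.

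All measured genes of the lists named for the enveloping layer and the yolk syncytial layer were lower in the 4 hpf table, opposite to most germ plasm genes. That is the direction of the zygotic blastula genes that sit against the labels. A difference between parts of the embryo and one between maternal and zygotic RNA cannot be told apart here. In the list for the enveloping layer, the embryo's outer epithelium, 4 of 6 measured genes were at least 2-fold lower in the 4 hpf table, beside 10.9% of all genes. None was 2-fold higher, and the 7 listed genes summed to 101 and 31.5 RPKM in the 2 and 4 hpf tables. In the yolk syncytial layer list, all 3 measured genes were at least 2-fold lower, beside the same 10.9%, and the 4 listed summed to 30.2 and 1.44 RPKM. Genes of differentiated tissue, which embryos of these ages should lack, summed to 2.84 and 0.443 RPKM over 5 listed genes. The transferrin gene tfa, the one of these that reached 1 RPKM, was at 2.104 and 0.258 RPKM. The part of these markers in the differences of the germ plasm genes was not tested. The 6 maternal egg RNAs had a median difference of 1.24, near the 1.32 of the germ plasm genes, with cth1 at 39.0 and 135 RPKM.

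The transcript of the bait, ddx3xb, was at 97.9 and 194 RPKM in the 2 and 4 hpf tables and includes any injected copy. It was 183% of buc in the 2 hpf table and 65.6% of buc in the 4 hpf table. The level of buc thus went from below to above that of ddx3xb, in which injected and own copies are not told apart.

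Genes next to these on the chromosome were mostly at low levels where they were listed. In the order of protein-coding genes of the RefSeq assembly GRCz12tu, the 10 genes had 20 flanking genes, of which 4 were among the genes compared. Others, such as hars, junbb and trir, were not matched to a single listed gene and have no level here. Those 4 compared had a median difference of 0.75, and 1 of them was at least 2-fold higher. It was si:ch211-286b5.4 beside nanos3, at 7.04 and 18.4 RPKM in the 2 and 4 hpf tables. The neighbour tbc1d5 of dazl was at 3.58 and 7.63 RPKM. Both neighbours of asz1, wnt2 and cftr, were listed at under 1 RPKM in both tables, at 0.0983 and 0.0883 RPKM for wnt2 and 0.452 and 0.421 RPKM for cftr. The neighbour of buc that was listed, rnf152, was at 0.595 and 1.40 RPKM. The single overlapping neighbour was nudt19 at the locus of celf1, at 0.282 and 0.394 RPKM. The assembly differs from the build of the files, and these neighbours, which fall outside the rule for named genes, were picked once their values were known.

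**Figure D5:**
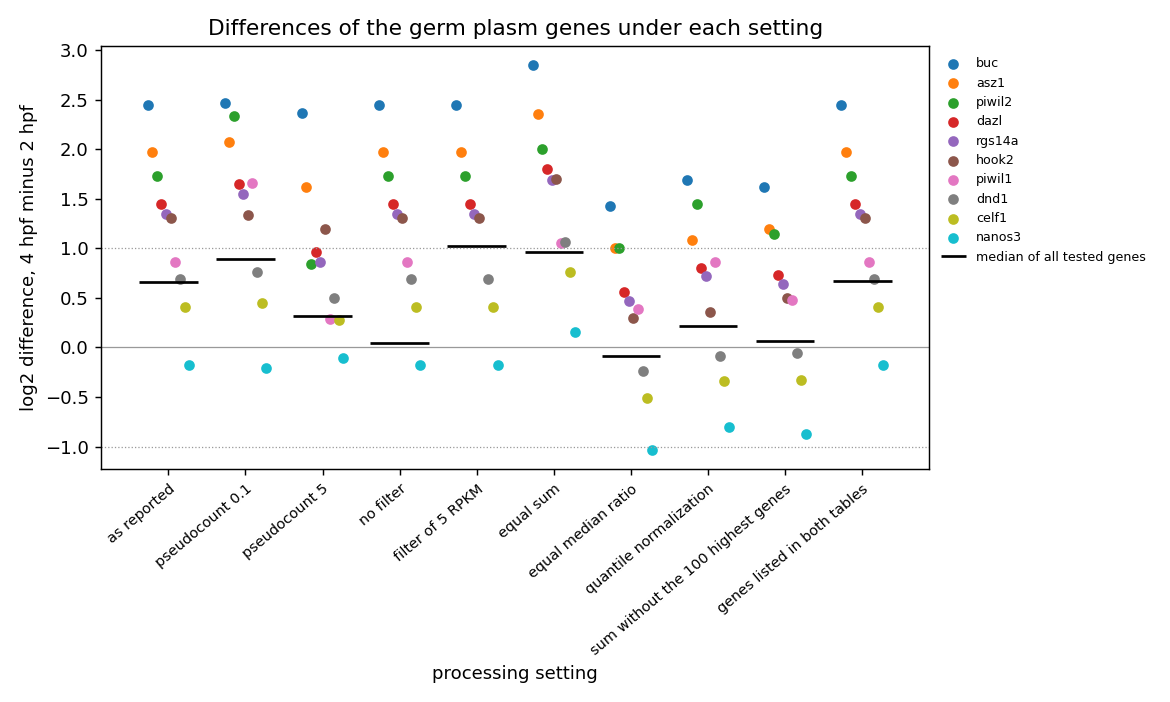
Log2 difference, 4 hpf minus 2 hpf, of each germ plasm gene under the reported setting and 9 alternatives, with a black bar at the median of all genes compared under that setting and dotted lines at 2-fold. The points of buc stay between 1.42 and 2.85 and above the 2-fold line, and those of nanos3 stay below the black bar throughout, while piwil1 has no point where the filter was 5 RPKM. Settings that scale a whole table by a constant shift a gene and the bar nearly alike.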

How the data were processed

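Per the labels' protocols, embryos were lysed in a mild detergent buffer, lysates were incubated with anti-FLAG magnetic beads and libraries were made with a SMARTer small RNA kit. The deposited values are RPKM, computed by the authors, in 1 table per age. Only the naming of the tables says that a value averages both replicates. Per the submitters' processing notes, the build was Zv9 and the tools were TopHat2 2.1.1 and Bowtie, bedtools 2.16.2, MACS2 2.0.10, Trimmomatic 0.36 and cutadapt 1.13. Their roles, the annotation, the counter and the read total are not stated. Since all genes of a table share 1 read total, a few dominant features lower the RPKM of the rest.

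A gene listed in 1 table was set to 0 in the other. Differences were log2(RPKM + 1), 4 hpf minus 2 hpf, over genes reaching 1 RPKM in a table. They were called at a size of at least 1 in either direction. A single mean per age allows no test and no p-value. Symbols came from a reference table that named 20039 of the 27205 identifiers (73.7%), some in human style. Named genes are the 10 germ plasm genes, the bait, the 5 genes nearest to buc, and up to 3 highest and 2 most different genes per list. Exceptions are stated. The genes, lists and alternatives were chosen with earlier results of these data known, and list genes without a symbol match are not analysed here. Alternatives were other pseudocounts, filters, scalings, thresholds and older symbols. The calculation was tested on simulated data, with shifts planted only in genes of at least 5 RPKM. That test does not cover lower genes or the unknown replicate error of these data. Python 3.11.15, numpy 2.4.6 and pandas 2.3.3 were used.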

Additional observations from a re-analysis of the deposited data

How the results depend on the processing

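No paired analysis was possible because the tables hold means without replicate values, so leave-one-out settings gave no value either. Depth, replicate spread and input are unknown. Against 6 germ plasm genes at least 2-fold higher, there were 3 with a pseudocount of 5, 3 each with an equal median ratio, quantile normalization and the sum without the 100 highest genes, 3 relative to the median of all genes, and 1 at a 4-fold threshold, but 7 with a pseudocount of 0.1 and 8 with an equal sum. The share of all genes, 33.0% as deposited, was 45.6% with a pseudocount of 0.1 and 48.0% with an equal sum. It was 14.3% with a pseudocount of 5, 10.3% after quantile normalization, 6.84% without the 100 highest genes and 3.57% with an equal median ratio. An equal median ratio also gave 1 lower gene, nanos3. Against a median of 1.32, the germ plasm genes had 1.60 with a pseudocount of 0.1, 0.85 with one of 5, 1.69 with an equal sum, 0.42 with an equal median ratio, 0.76 after quantile normalization and 0.57 without the 100 highest genes. Against 4409 higher and 1452 lower genes in all, the counts were 1907 and 371 under a pseudocount of 5, 476 and 2964 with an equal median ratio, 913 and 2578 without the 100 highest genes, 291 and 342 at 4-fold, and 1047 and 2832 relative to the median. Quantile normalization gave 1369 higher genes and a filter of 5 RPKM 607 lower genes. Of 89 differences of single germ plasm genes under alternatives, 73 stayed on their side of 2-fold, 16 crossed it, and no called one changed sign. Other filters and the restriction to genes listed in both tables only drop genes and leave each single value unchanged. Part of the 73 therefore could not have moved. Older symbols added 0 identifiers. Leaving out buc or piwil1, chosen after seeing the data, moved the median by less than the tolerance of 0.25 set here, which does not come from replicates. Why the settings differ was not tested, beyond the lower weight that a larger pseudocount gives to low genes.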
